A study of Rattus norvegicus with 9 samples.

Results

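The abundant carrier proteins and hepatokines that hepatocytes secrete into plasma were followed through 9 rat liver RNA libraries. The 10 genes were Alb, Ttr, Rbp4, Ambp, Gc, Ahsg, Fetub, Serpina1, Tf and Selenop. They were taken as a named list of the main secreted carriers. The rule uses no measured value, but the list was drawn up with earlier results of these data known. Each gene had to be a row of both deposited count tables. All 10 were, out of 15565 genes in both tables, and all 10 passed the filter on low counts. The livers came from male rats of the strain labelled SD, with 3 libraries in each of 3 groups. One group ate a normal diet, and one ate a high-fat diet for 8 weeks, given to induce fatty liver. Rats of the remaining group received Smilax china L., a plant the labels shorten to SCL, and the labels do not give their diet. The design text speaks of an SCS group, which was taken to be the SCL-treated group. The labels record no genotype, transgene or age for these groups. The samples are numbered, but no label says that a number stands for a separate animal, so each p-value reflects only how far these samples spread, which may be technical.

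Carrier proteins move water-insoluble or reactive cargo through the blood and are made largely by hepatocytes. Albumin (Alb) carries fatty acids, bilirubin, hormones and drugs and holds the osmotic pressure of plasma. Transthyretin (Ttr) carries thyroid hormone and binds retinol-binding protein (Rbp4), which carries retinol out of the liver. The product of Gc is the vitamin D binding protein, a relative of albumin encoded near it. Ambp encodes a precursor cut into alpha-1-microglobulin, a haem and radical scavenger, and bikunin, the light chain of the inter-alpha-trypsin inhibitors. Fetuin-A (Ahsg) holds calcium phosphate in solution and inhibits the insulin receptor, and fetuin-B (Fetub) inhibits the protease of the egg coat. Serpina1 encodes alpha-1-antitrypsin, the inhibitor of neutrophil elastase. Transferrin (Tf) carries iron, and selenoprotein P (Selenop) carries selenium as selenocysteine to other organs.

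Promoters of liver secreted genes are known for sites of HNF1, HNF4, FOXA and C/EBP factors. RefSeq promoters of assembly GRCr8 were available for 9 of the 10 genes as windows of 300 bases, 250 before and 50 after the annotated start. A searched motif was found in 6 of the genes, and 1 stretch of 30 bases around it is shown for each, so that the matched letters can be seen in place. Each is written 5′ to 3′ on the gene's strand, with the matched letters in capitals.
Alb, chr14:17907037-17907066, minus strand: gtgtgGTTAATgatctacagttattggtta
Gc, chr14:18916056-18916085, plus strand: acaaaGTTAATgattaaaacctcccagact
Selenop, chr2:54225864-54225893, plus strand: gcgagGTAAACAagagggcTATAAAtgtca
Ahsg, chr11:91632619-91632648, minus strand: cgcctTTACGCAATtccttcagtgggctct
Rbp4, chr1:245313577-245313606, minus strand: ggagcTATAAAggtcgggaagccgctcgcc
Tf, chr8:112695467-112695496, minus strand: ggcgaTTGGGCAATtggactgcgcaaacac

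Both strands of every window were searched. The HNF1 core GTTAAT was found in Alb, where it begins 82 bases before the start, and in Gc, 194 bases before. It occurred in 7.45% of all 33469 promoters. The FOXA motif TGTTTAC was found on the antisense strand of Selenop, 43 bases before the start, and in 3.78% of all promoters. The C/EBP motif TTNNGCAAT was found in Ahsg, 60 bases before the start, and in Tf, 115 bases before, and in 2.33% of all promoters. The TATA box motif TATAAA was found in Rbp4, 50 bases before the start, in Selenop, 29 bases before, and in Tf, 52 bases before. It occurred in 14.2% of all promoters. None of the windows held the FOXA variant TATTTAC (3.51% of all promoters), the C/EBP palindrome TTGCGCAA (0.17%) or the HNF4 core CAAAGTCC (1.4%). A match describes letters in a window and shows no binding.

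Depth lay between 12413774 and 15521648 reads a library. Mitochondrial-genome transcripts held between 3.85% and 11.2% of reads on the normal diet, and 4.90%, 18.8% and 44.1% in high-fat diet replicates 1, 2 and 3. In SCL-treated replicates 1, 2 and 3 they took 10.97%, 49.0% and 7.04%. High-fat diet replicate 3 and SCL-treated replicate 2 therefore stand apart. The carriers' shares and the fold changes of each comparison are given with and without them, while levels per length, ratios within a library, likeness and the related lists are given over all 9 libraries only. Levels are given as CPM (reads of a gene scaled to a common library total) on library sizes scaled by TMM, and as a percentage of reads from nuclear genes, which leaves the mitochondrial transcripts out.

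The 10 carriers together made up between 14.2% and 26.2% of nuclear-gene reads, and Alb alone made up between 7.31% and 14.6%. On the normal diet their joint share was 23.5%, 20.1% and 24.4% in replicates 1, 2 and 3. On the high-fat diet it was 21.2%, 20.9% and 14.2%, and with SCL it was 21.1%, 14.8% and 26.2%. The groups overlapped, and the lowest values were those of the libraries with the highest mitochondrial shares. Group means were 22.6% ± 2.27 (SD, n = 3) on the normal diet, 18.8% ± 3.97 on the high-fat diet and 20.7% ± 5.71 with SCL. Without the libraries over 40% mitochondrial they were 22.6%, 21.1% and 23.7%. As a share of all reads, mitochondrial ones included, the means were 21.1% ± 1.62, 15.03% ± 6.35 and 16.9% ± 8.57 in the same order. In bulk tissue, fewer hepatocytes and less carrier RNA per hepatocyte cannot be told apart.

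**Figure D1:**
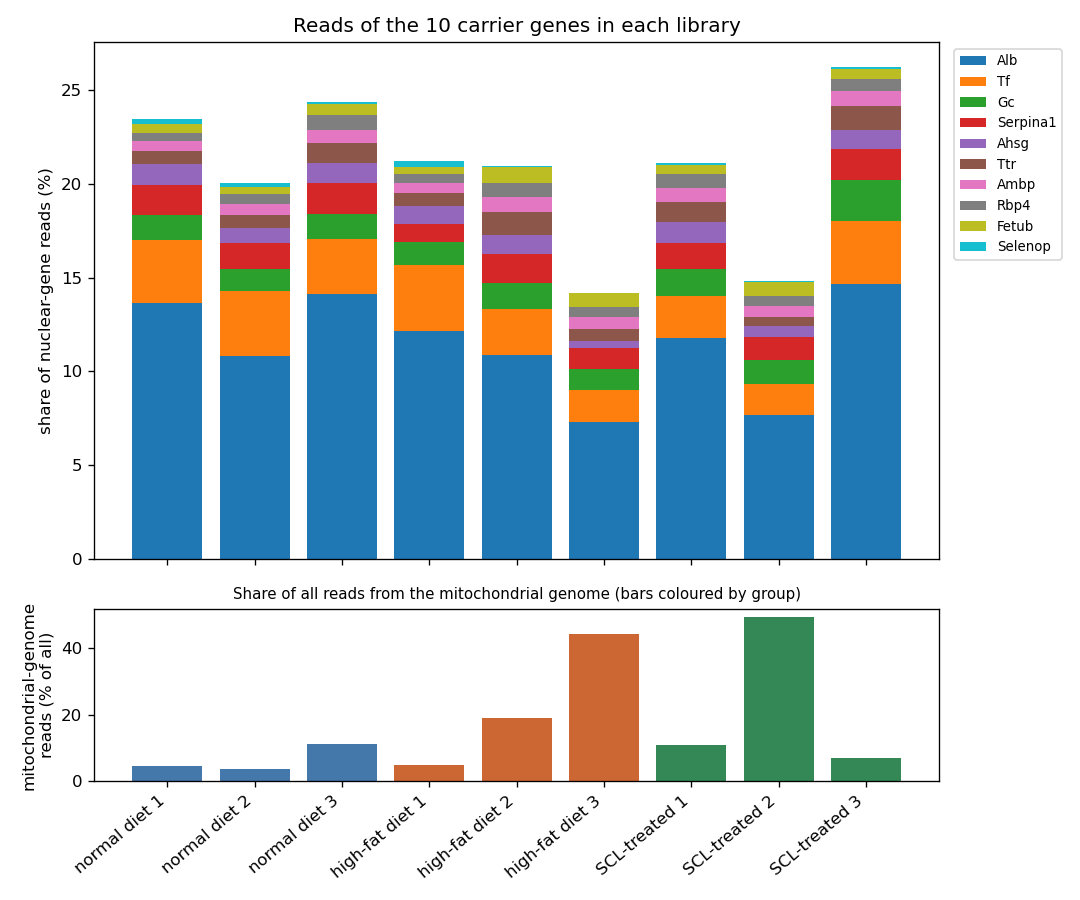
Share of nuclear-gene reads (%) taken by each of the 10 carrier genes in each of the 9 libraries as stacked bars (top), with the share of all reads from the mitochondrial genome (%) below, coloured by group. The joint share is 14.2% in high-fat diet replicate 3 and 14.8% in SCL-treated replicate 2, whose mitochondrial shares are 44.1% and 49.0%, and between 20.1% and 26.2% in the other libraries.

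Alb was the most abundant nuclear gene in all 9 libraries. Counted against mitochondrial transcripts as well, it ranked 6 in high-fat diet replicate 3 and 8 in SCL-treated replicate 2, and 1 elsewhere. Its reads were between 51.5% and 58.2% of those of the 10 carriers. The remaining 9 carriers took between 6.88% and 11.6% of nuclear-gene reads.

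The albumin family members gave the following values. Alb stood at 119051, 91236 and 125747 CPM in normal diet replicates 1, 2 and 3, at 93976, 93155 and 45524 CPM on the high-fat diet, and at 101841, 47034 and 152855 CPM with SCL. Its mean share of nuclear-gene reads was 12.9% ± 1.79 (SD, n = 3), 10.1% ± 2.53 and 11.4% ± 3.50 in the same order of groups. High-fat diet replicate 3 and SCL-treated replicate 2 were the low libraries and SCL-treated replicate 3 the high one, so the groups overlapped. Gc stood at 11715, 9770 and 11833 CPM on the normal diet, 9720 (replicate 1), 12154 and 6862 CPM on the high-fat diet, and 12224, 7994 and 23338 CPM with SCL. Its mean share was 1.28% ± 0.103 on the normal diet, 1.26% ± 0.160 on the high-fat diet and 1.65% ± 0.510 with SCL. The wide SD with SCL came with SCL-treated replicate 3 at 2.23% of nuclear-gene reads, against 1.42% or less in each of the other 8 libraries.

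The retinol and thyroid hormone carriers varied in another order. Ttr stood at 6000, 6226 and 9640 CPM on the normal diet, 5370, 10517 and 3973 CPM on the high-fat diet, and 9106, 3036 and 13751 CPM with SCL. Rbp4, its partner in plasma, stood at 3863, 4515 and 6894 CPM on the normal diet, 3680, 6276 and 3372 CPM on the high-fat diet, and 6359, 3332 and 6837 CPM with SCL. For both genes the ranges of the 3 groups overlapped, with the low CPM values in high-fat diet replicates 1 and 3 and SCL-treated replicate 2. By share of nuclear-gene reads Rbp4 was instead lowest in normal diet replicate 1, at 0.443%. Its share was 0.541% in high-fat diet replicate 3 and 0.543% in SCL-treated replicate 2. Mean shares of nuclear-gene reads were 0.837% ± 0.215, 0.855% ± 0.327 and 0.954% ± 0.420 for Ttr (SD, n = 3, normal diet, high-fat diet and SCL). For Rbp4 they were 0.585% ± 0.171, 0.584% ± 0.134 and 0.644% ± 0.0961.

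The fetuins, encoded side by side and related in sequence, differed from each other. Ahsg stood at 9762, 6575 and 9484 CPM on the normal diet, 7276, 8570 and 2062 CPM on the high-fat diet, and 9810, 3628 and 10210 CPM with SCL. Fetub stood at 4160, 3503 and 5500 CPM on the normal diet, 2897, 7491 and 4490 CPM on the high-fat diet, and 3918, 4721 and 5192 CPM with SCL. Ahsg was lowest in high-fat diet replicate 3 and next lowest in SCL-treated replicate 2, whereas Fetub was not low in either of them and was lowest in high-fat diet replicate 1. The log2 ratio of Ahsg to Fetub ran from -1.12 to 1.33 over the libraries. The mean share of nuclear-gene reads was 0.989% ± 0.182, 0.759% ± 0.372 and 0.900% ± 0.279 for Ahsg (SD, n = 3, same order). For Fetub it was 0.504% ± 0.104, 0.657% ± 0.256 and 0.573% ± 0.171.

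The protease inhibitors Serpina1 and Ambp also overlapped between groups. Serpina1 stood at 13760, 11629 and 14918 CPM on the normal diet, 7479, 13104 and 7096 CPM on the high-fat diet, and 12147, 7323 and 17222 CPM with SCL. Its 3 lowest libraries were high-fat diet replicates 1 and 3 and SCL-treated replicate 2, and the first of these had a mitochondrial share of only 4.90%. Ambp stood at 4513, 4552 and 6042 CPM on the normal diet, 4182, 6996 and 4174 CPM on the high-fat diet, and 6736, 3543 and 8038 CPM with SCL. Mean shares were 1.55% ± 0.151, 1.21% ± 0.289 and 1.41% ± 0.228 for Serpina1 (SD, n = 3, same order). For Ambp they were 0.579% ± 0.0875, 0.677% ± 0.138 and 0.708% ± 0.113.

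The carriers of metals and of selenium included the member with the widest spread. Tf stood at 29143, 29157 and 25777 CPM on the normal diet, 26805, 20548 and 10712 CPM on the high-fat diet, and 19595, 10164 and 35035 CPM with SCL. Its mean share was 3.23% ± 0.297, 2.53% ± 0.884 and 2.42% ± 0.861 (SD, n = 3, same order). The normal diet libraries lay close together, and those of the other groups spread to both sides of them or below.

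Selenop stood at 2432, 1696 and 867 CPM on the normal diet, 2145, 266 and 143 CPM on the high-fat diet, and 1096, 179 and 1382 CPM with SCL. The highest library was 17.0-fold above the lowest, against 2.07-fold to 4.95-fold for the other 9 carriers. Its SD of log2 CPM over the 9 libraries was 1.58, which ranked 16 among 948 genes with a mean of at least 100 CPM, whose median SD was 0.488. Its share of nuclear-gene reads was 0.279% in normal diet replicate 1 (95% Wilson interval 0.276 to 0.282) and 0.0230% in high-fat diet replicate 3 (0.0219 to 0.0241). For every carrier and library the half-width of that interval was at most 4.83% of the value, and at most 1.27% without Selenop. Such intervals cover counting error only, and reads without molecular identifiers are not independent molecules. The 3 libraries lowest in Selenop, high-fat diet replicates 3 and 2 and SCL-treated replicate 2, were the 3 with the highest mitochondrial shares, and the 3 highest were the 3 with the lowest. Means were 1665 ± 783 CPM (SD, n = 3) on the normal diet, 851 ± 1122 CPM on the high-fat diet and 885 ± 628 CPM with SCL.

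**Figure D2:**
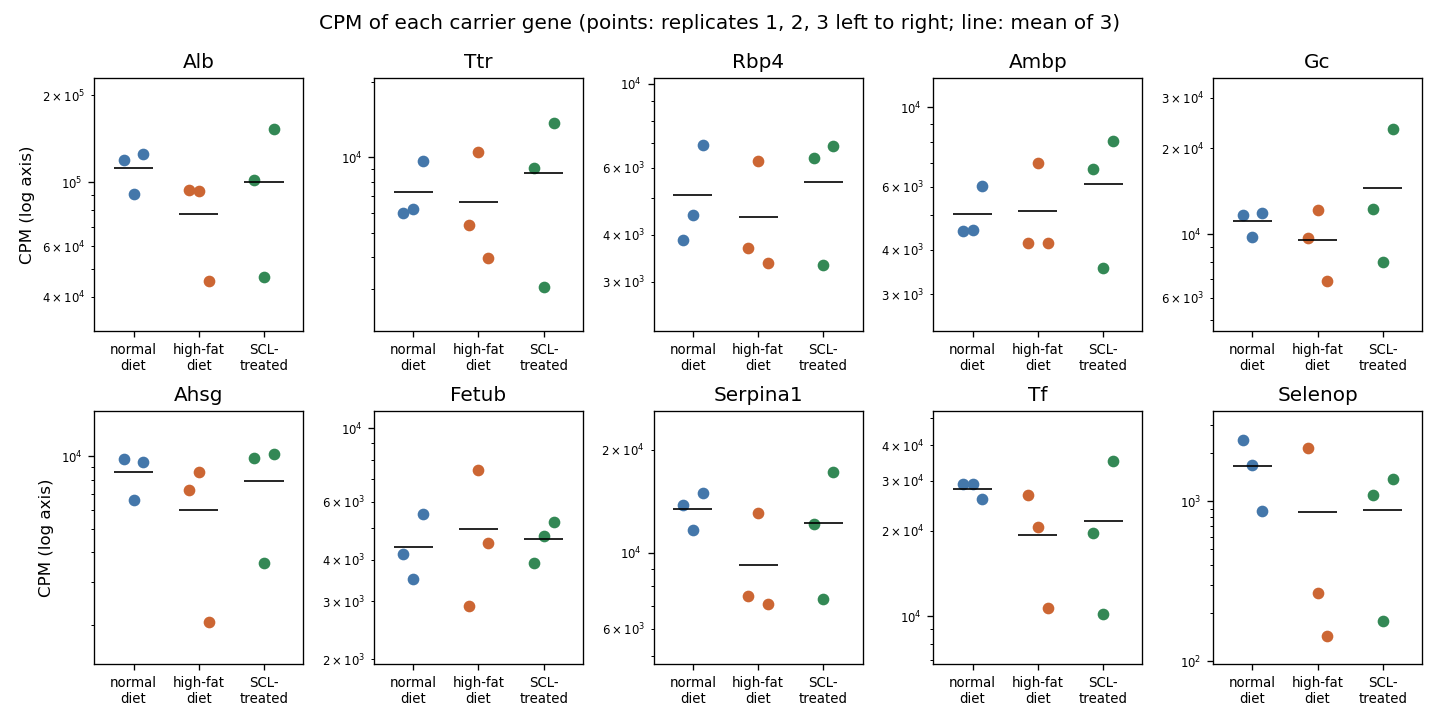
CPM of each carrier gene on a log axis, with 1 point per library, replicates 1, 2 and 3 from left to right within a group, and a line at the group mean. The groups overlap for every gene, and Selenop spreads from 143 to 2432 CPM.

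**Figure D3:**
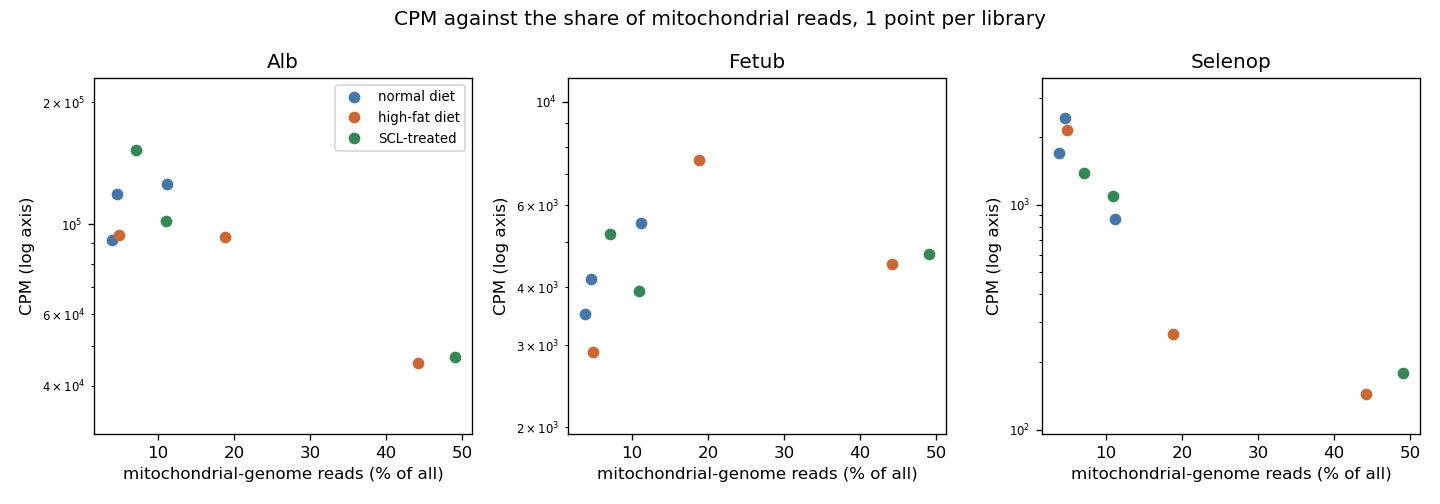
CPM (log axis) of Alb, Fetub and Selenop against the share of all reads from the mitochondrial genome (%), with 1 point per library coloured by group. Selenop is at 2432 CPM at a share of 4.63% and at 143 CPM at 44.1%, Alb is low only in the 2 libraries over 40%, and Fetub is highest at 18.8%.

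The first comparison asked how the high-fat diet livers differed from the normal diet livers. Of the 10 carriers, 8 had a negative log2 fold change, where 47.2% of all 12041 tested genes did. No carrier passed an adjusted p of 0.05 in edgeR's quasi-likelihood test, nor did any reach an unadjusted p under 0.05. The same test called 0.0083% of genes (1 gene), with 520 at an unadjusted p under 0.05. DESeq2 also called no carrier and called 0.358% of genes. The median log2 fold change was -0.37 over the carriers and 0.034 over all tested genes.

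Serpina1 stood at -0.54 on the log2 scale (SE 0.48, 95% interval -1.60 to 0.52, n = 3 against 3). Tf stood at -0.53 (SE 0.58, -1.81 to 0.74), Alb at -0.53 (SE 0.64, -1.95 to 0.88) and Ahsg at -0.53 (SE 0.59, -1.84 to 0.78). These intervals reach from large decreases to increases, so no difference was detectable at this spread between libraries. Nearer to 0 were Gc at -0.21 (SE 0.50), Rbp4 at -0.20 (SE 0.46), Ttr at -0.14 (SE 0.59), Ambp at 0.023 (SE 0.44) and Fetub at 0.18 (SE 0.44). Selenop had the lowest value, -0.97 (SE 0.97, -3.10 to 1.17). Adjusted p-values of the 10 carriers ran from 0.9155 to 0.9935 in edgeR.

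Each high-fat diet library moved some of these values. Without replicate 1, whose Selenop level was within the normal diet range, Selenop stood at -3.03 (SE 0.82, edgeR adjusted p = 0.127, with the 3 groups sharing 1 estimate of the spread). That fit also put 2513 genes at an unadjusted p under 0.05, against 520 with all 9 libraries. The carriers' median in it was -0.33, against -0.37 with all 9 libraries, with 8 of 10 negative in both. Whether the change was particular to Selenop was not tested. The sample title of replicate 1 carries M2, where those of replicates 2 and 3 carry M. Replicate 1 had a mitochondrial share of 4.90%. The high-fat diet libraries left without it were at 18.8% and 44.1%, against at most 11.2% on the normal diet. Diet and mitochondrial share therefore cannot be told apart in that fit. In the fits that each left out 1 library the Selenop value ran from -3.03 to -0.47. Without replicate 2 the carriers' median was -0.56 with 10 of 10 negative. Without replicate 3 it was -0.083, and without both libraries over 40% mitochondrial it was -0.081, with Alb at -0.26. With the log2 mitochondrial share as a covariate the median was -0.071 and Selenop stood at -0.16 (SE 0.34).

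No carrier had groups that did not overlap in this comparison, against 10.6% of tested genes. The authors' deposited table of high-fat and normal diet, whose fold changes are signed as normal over high-fat diet, gave no carrier an adjusted p under 0.05 and 0.333% of its genes one. In that table Alb stood at 0.54 (adjusted p = 0.884) and Selenop at 0.97 (adjusted p = 0.923), the same direction of difference as above.

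The second comparison asked how SCL-treated livers differed from high-fat diet livers. Here 9 of the 10 carriers had a positive log2 fold change, where 46.7% of all tested genes did. No carrier passed the edgeR test, which called 0% of genes with 235 at an unadjusted p under 0.05 and none of them a carrier. DESeq2 called 0.00643% of genes and no carrier. The median was 0.34 over the carriers and -0.031 over all tested genes. This comparison shares the high-fat diet libraries with the first, so a low library in that group moves both.

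Gc had the highest value, 0.60 (SE 0.50, 95% interval -0.50 to 1.70, n = 3 against 3). Serpina1 stood at 0.41 (SE 0.48), Ahsg at 0.40 (SE 0.59), Ttr at 0.38 (SE 0.59) and Alb at 0.38 (SE 0.64). Rbp4 stood at 0.31 (SE 0.46), Ambp at 0.25 (SE 0.44), Tf at 0.16 (SE 0.57), Selenop at 0.056 (SE 0.96) and Fetub at -0.11 (SE 0.44). Every interval held 0, and all 10 edgeR adjusted p-values were 0.9997. Without SCL-treated replicate 3 the carriers' median was -0.029 with 5 of 10 negative, and without high-fat diet replicate 3 it was 0.11. Without SCL-treated replicate 2 it was 0.62, without high-fat diet replicate 2 it was 0.60, and in both 1 of 10 was negative. Without both libraries over 40% mitochondrial it was 0.40, and 1 of 10 was negative. Selenop stood at 2.12 (SE 0.78, edgeR adjusted p = 0.934) without high-fat diet replicate 1. That fit put 551 genes at an unadjusted p under 0.05, against 235 with all 9 libraries.

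No carrier was free of overlap between the groups, against 4.78% of tested genes. The authors' deposited table of SCL-treated and high-fat diet gave 0 of 15819 genes an adjusted p under 0.05. In it Gc stood at 0.60 and Alb at 0.37, signed as SCL-treated over high-fat diet, each with an adjusted p of 1.

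The third comparison set SCL-treated against normal diet livers. Of the 10 carriers, 5 had a negative log2 fold change, where 48.2% of all tested genes did. The edgeR test called 0.0083% of genes and no carrier, with 828 genes and no carrier at an unadjusted p under 0.05. DESeq2 called 0.262% of genes and no carrier. The median was -0.028 over the carriers and 0.026 over all tested genes, and 15.3% of tested genes but no carrier had groups that did not overlap.

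Gc stood at 0.39 (SE 0.50, 95% interval -0.72 to 1.49, n = 3 against 3), Ambp at 0.28 (SE 0.44), Ttr at 0.24 (SE 0.59), Rbp4 at 0.11 (SE 0.46) and Fetub at 0.071 (SE 0.44). On the other side were Ahsg at -0.13 (SE 0.59), Serpina1 at -0.14 (SE 0.48), Alb at -0.16 (SE 0.64), Tf at -0.38 (SE 0.57) and Selenop at -0.91 (SE 0.96, -3.04 to 1.22). The lowest edgeR adjusted p among them was 0.751. Without SCL-treated replicate 3 the median was -0.32 with 9 of 10 negative, and without the libraries over 40% mitochondrial it was 0.19 with 2 of 10 negative. With the log2 mitochondrial share as a covariate it was 0.23 with 1 of 10 negative, and the signs of 6 carriers turned, among them Tf, at 0.084, and Selenop, at 0.35 (SE 0.35). Without SCL-treated replicate 2 the median was 0.20, and without normal diet replicate 3 it was 0.11.

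Without the libraries over 40% mitochondrial, which leaves 2 libraries in each of those groups, mean shares of nuclear-gene reads came to 11.5% on the high-fat diet and 13.2% with SCL for Alb, against 12.9% on the normal diet. For Ahsg they were 0.973% and 1.06%, against 0.989%, and for Ttr 0.963% and 1.18%, against 0.837%. The high-fat diet mean of Ahsg was thus close to that of the normal diet once replicate 3 was left out. Gc came to 1.34% and 1.82%, Rbp4 to 0.606% and 0.694%, Ambp to 0.680% and 0.774% and Fetub to 0.626% and 0.475%. Serpina1 came to 1.25% and 1.53%, Tf to 2.94% and 2.81% and Selenop to 0.155% and 0.129%.

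The shares of nuclear-gene reads over all 9 libraries gave no call. Over 30 two-sided exact permutation tests, 10 genes in 3 comparisons, the lowest p was 0.2, reached by Serpina1 in high-fat against normal diet and by Ambp in SCL-treated against normal diet. The lowest Benjamini-Hochberg adjusted value of these exact tests was 0.955, and 3 libraries against 3 cannot give a p below 0.1.

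**Figure D4:**
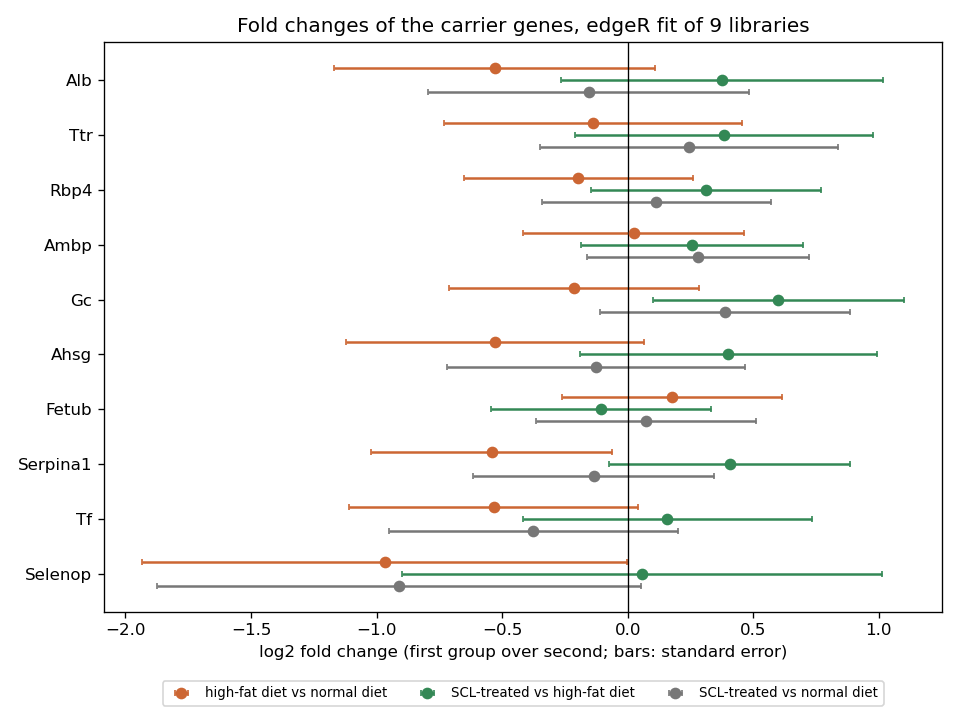
Log2 fold change of each carrier gene in the 3 comparisons, first group over second, from the edgeR fit of 9 libraries, with bars of 1 standard error. High-fat against normal diet is negative for 8 of 10 genes, SCL-treated against high-fat diet is positive for 9 of 10, and no value passed the test.

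Levels were compared between genes only per length, as FPKM. Alb had a mean of 47523 FPKM over the 9 libraries and Ttr, the next, 10713 FPKM, and Alb was above Ttr in 9 of 9 libraries with no overlap in any group. Below them came Tf at 7230, Serpina1 at 6635, Gc at 6527, Rbp4 at 5334, Ambp at 4377, Ahsg at 4055, Fetub at 3007 and Selenop at 2006 FPKM. Among these neighbours Rbp4 was above Ambp in 9 of 9 libraries, although their ranges overlapped in each group. Tf was above Serpina1 in 4 of 9 libraries, so their order is not separated, and the other neighbours were ordered as their means in 6 to 8 of 9. Per length the 10 genes together took 20.9% ± 2.26 (SD, n = 3) of nuclear FPKM on the normal diet, 16.9% ± 4.29 on the high-fat diet and 17.9% ± 4.29 with SCL.

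Ratios taken within a library show which carriers kept step with each other, without a background from pairs of other genes. Rbp4 and Ambp kept the steadiest ratio of all 45 pairs, with an SD of the log2 ratio of 0.148 over the 9 libraries. Alb and Tf were next at 0.230, whereas Ttr and Rbp4, which bind each other in plasma, had 0.319. Ahsg and Fetub had 0.853, and the least steady pair was Fetub and Selenop at 1.82. Relative to Alb, the log2 ratio of Tf spanned 0.732, that of Gc 0.853 and that of Serpina1 0.970. The ratio of Fetub to Alb spanned 1.70, from -5.02 in high-fat diet replicate 1 to -3.32 in SCL-treated replicate 2. Selenop ran from -5.45 in high-fat diet replicate 1 to -8.45 in high-fat diet replicate 2.

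**Figure D5:**
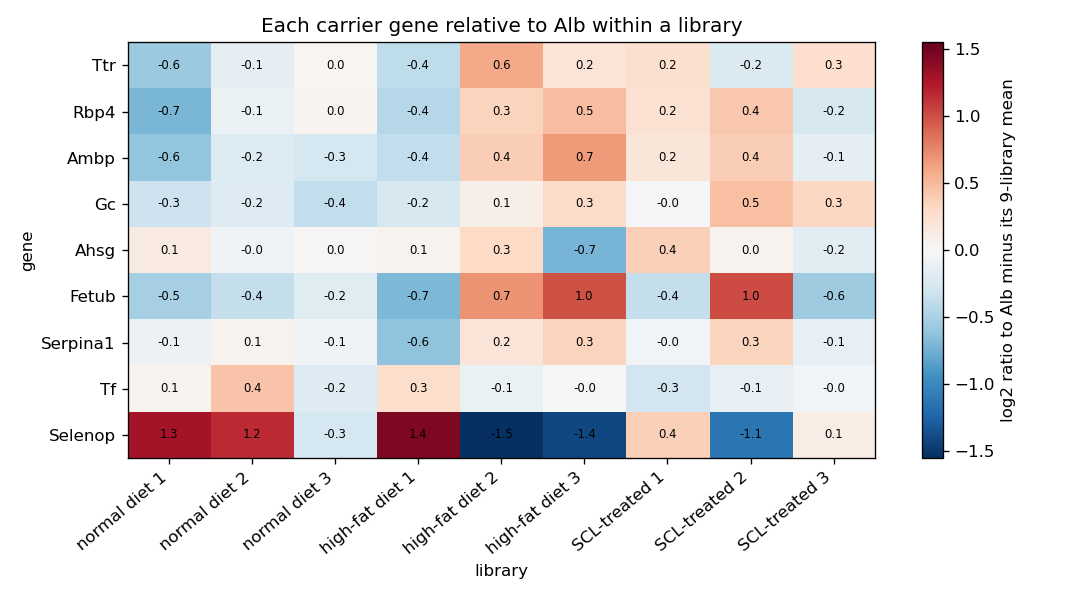
Log2 ratio of each carrier gene to Alb in each library, minus that gene's mean over the 9 libraries, as a colour scale with the values written in. Fetub is highest relative to Alb in SCL-treated replicate 2 and high-fat diet replicate 3, and Selenop is lowest in high-fat diet replicates 2 and 3 and SCL-treated replicate 2.

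By library, 5 carriers had their lowest CPM in high-fat diet replicate 3, 4 in SCL-treated replicate 2 and 1, Fetub, in high-fat diet replicate 1. In each of the first 2 of these libraries 9 of the 10 carriers were below their 9-library median. SCL-treated replicate 3 held the highest CPM of 7 carriers and none below its median. Normal diet replicate 1 was highest for Selenop, normal diet replicate 3 for Rbp4 and high-fat diet replicate 2 for Fetub. By share of nuclear-gene reads these counts differed. High-fat diet replicate 3 was then lowest for 4 carriers. SCL-treated replicate 2, high-fat diet replicate 1 and normal diet replicate 1 were each lowest for 2. SCL-treated replicate 3 held the highest share of 3 carriers.

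Genes outside the list were ranked by how closely they followed the carriers' mean. The measure was the SD over 9 libraries of a gene's log2 CPM minus the carriers' mean log2 CPM, among 938 genes with a mean of at least 100 CPM, whose median was 0.515. The 5 closest were Cpb2, a plasma carboxypeptidase, at 0.134, Tmem59 at 0.150, Agt, the angiotensin precursor, at 0.160, Pon2 at 0.166 and Mbl1, a mannose-binding lectin, at 0.176. Each carrier was measured against the mean of the other 9 carriers, whereas the 938 genes were measured against the mean of all carriers. Alb had 0.115, and 0 of the 938 genes had a lower SD. Fetub had 0.690 with 675 genes lower, and Selenop 1.38 with 908 lower. These counts compare SDs taken against unlike means, and Selenop itself enters the mean used for the genes. Whether these 2 carriers followed the rest less than most abundant genes did was not tested on a shared mean. All libraries, and the scaling that abundant genes enter, are shared between the genes compared.

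The following genes were chosen after their values were seen. Itih2, a heavy chain of the inter-alpha-trypsin inhibitors, was closest to Selenop, with an SD of the log2 ratio of 0.336. Itih2 stood at 783, 567 and 407 CPM on the normal diet, 625, 152 and 70.8 CPM on the high-fat diet, and 386, 86.9 and 573 CPM with SCL. It shared the 3 low libraries of Selenop. Iqgap2 (0.440) and Crp, C-reactive protein (0.479), came next. Closest to Fetub were Cebpb (0.154), a C/EBP factor, B2m (0.198), the light chain of class I molecules, and Rpl14 (0.223), a ribosomal protein. Closest to Alb were Pon2 (0.145), Rpn2 (0.162) and Serpinf1 (0.167). Each kept a steadier ratio to Alb than any carrier did, the steadiest of these being Tf (0.23).

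Related genes were counted in 5 lists, and no member of any list passed the edgeR test in any comparison. At an unadjusted p under 0.05 in edgeR stood 1 other plasma carrier in each comparison, 2, 1 and 1 other hepatokines, 2, 0 and 1 transcription factors, 1, 0 and 3 receptors and partners, and 0 genes of the secretory machinery, with the comparisons in the order above. Over all tested genes 4.32%, 1.95% and 6.88% had such a p, so counts of 1 in lists of this size are near that background. Larger as shares were 2 of 15 hepatokines and 2 of 13 transcription factors in the first comparison. So were 3 of 16 receptors and partners in the third. Whether these lists differ from the background was not tested. DESeq2 called 1 listed gene, the hepatokine Angptl8 in SCL-treated against normal diet, which was named after its values were seen. Angptl8, a regulator of lipoprotein lipase, stood there at 2.43 (SE 0.64, edgeR adjusted p = 0.665), with 30.5, 11.1 and 27.4 CPM on the normal diet and 75.9, 37.6 and 259 CPM with SCL. High-fat diet libraries held 70.8, 97.5 and 90.2 CPM of it. Its log2 fold change was 1.91 (SE 0.63, edgeR adjusted p = 0.911) in high-fat against normal diet. It was 0.53 (SE 0.61) in SCL-treated against high-fat diet. Other plasma carriers had 19 of 21 genes tested. In high-fat against normal diet 15 of them were negative, with a median log2 fold change of -0.51 against 0.034 over all genes. In SCL-treated against high-fat diet 16 were positive, with a median of 0.29, and in SCL-treated against normal diet 14 were negative, with a median of -0.16. Hpx, the haem carrier hemopexin, stood at -0.60 (SE 0.53) and Hp, the haemoglobin carrier haptoglobin, at -0.47 (SE 0.45) in the first comparison. In the second they stood at 0.22 (SE 0.53) and 0.41 (SE 0.45).

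Receptors and partners of the carriers, a list that shares Itih1 and Itih2 with the other plasma carriers, had 16 of 21 genes tested, 13 negative in high-fat against normal diet with a median of -0.53. In SCL-treated against high-fat diet 13 were positive with a median of 0.30, and in SCL-treated against normal diet 11 were negative with a median of -0.41. Asgr1, a subunit of the receptor that clears desialylated plasma proteins, stood at 0.0048 (SE 0.38), 0.39 (SE 0.38) and 0.40 (SE 0.38) in the 3 comparisons. Itih1, whose product is joined to the bikunin part of Ambp, stood at -0.69 (SE 0.55), 0.25 (SE 0.55) and -0.44 (SE 0.55).

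Other hepatokines had 15 of 16 genes tested, with 8 positive and 7 negative in both comparisons with the high-fat diet and 12 negative in SCL-treated against normal diet. Their medians were 0.081, 0.0080 and -0.28. Igfbp1, which binds insulin-like growth factors, stood at -1.0035 (SE 0.74) in high-fat against normal diet, and Hamp, the iron hormone hepcidin, at 0.24 (SE 0.59).

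Liver transcription factors known to act on carrier promoters had 13 of 13 tested, with 8, 10 and 8 negative in the 3 comparisons and medians of -0.028, -0.081 and -0.093. Hnf4a stood at -0.14 (SE 0.40), -0.61 (SE 0.40) and -0.75 (SE 0.40), and Cebpb at 0.026 (SE 0.38), -0.033 (SE 0.38) and -0.0070 (SE 0.38). Selenoprotein and secretory machinery had 19 of 20 tested, with 14, 12 and 11 negative and medians of -0.20, -0.064 and -0.15. Sec61a1, of the channel that admits secreted proteins to the endoplasmic reticulum, stood at -0.47 (SE 0.33), and Sar1b, which forms transport vesicles leaving it, at -0.17 (SE 0.26), both in high-fat against normal diet.

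Markers were used to check the tissue and its other cells. All 10 hepatocyte markers outside the list, such as Cps1 and Apob, were detected in every library, and summed to 25780 to 36640 CPM of nuclear-gene reads, the scale of all marker sums here, lowest in high-fat diet replicate 3. Relative to its lowest value, that range is narrower than that of the carriers' share, which ran from 14.2% to 26.2%. The sum hides wider ranges of single markers, with Cps1 between 688.5 and 3693 CPM and Apob between 3114 and 6474 CPM on the TMM scale. What the 2 ranges say of hepatocyte content was not tested. Kupffer cell and macrophage markers, with 10 of 10 detected, summed to 619 to 871 CPM on the normal diet, 436 to 699 on the high-fat diet and 412 to 684 with SCL. Sinusoidal markers (6 of 7 in the tables) summed to 164 to 270 CPM and stellate cell markers (7 of 8) to 171 to 535 over all libraries. Cholangiocyte markers summed to 19.7 to 33.1 CPM on the normal diet, with 63.6 in high-fat diet replicate 3 and 110 in SCL-treated replicate 2. Erythroid markers (4 of 5) summed to 159 to 472 CPM on the normal diet, to 602 in high-fat diet replicate 2 and to 1083 in SCL-treated replicate 1. They summed to 1934 in high-fat diet replicate 3 and 1997 in SCL-treated replicate 2. Lymphocyte markers summed to 71.4 and 65.4 CPM in those 2 libraries and to between 22.9 and 50.8 CPM in the others. The 1 adipocyte marker in the tables, Cfd, of 4 listed, was likewise highest there, at 53.7 and 63.9 CPM, against 39.1 CPM or less. Neutrophil markers (3 of 4) summed to 49.4 CPM in high-fat diet replicate 3 and to at most 18.0 CPM elsewhere, and choroid plexus and kidney tubule markers (2 of 4) to at most 1.11. The part of these other cells in the carriers' levels was not tested.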

How the data were processed

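Total RNA of 9 rat liver samples was extracted with Trizol and sequenced as NEBNext Ultra libraries, per the labels' protocols. Per the file headers, the authors deposited unnormalized gene-level read counts, a normalized signal made by dividing counts by size factors, FPKM values, and their own log2 fold changes, p-values and adjusted p-values, in one table of high-fat and normal diet and one of SCL-treated and high-fat diet. The submitters' processing notes name DESeq2, without a version, and the mouse build mm9. For aligner and counter, names are not given in the sources at hand. Symbols matched rat RefSeq (GRCr8) for 92.6% of shared genes. No match to mouse symbols was computed, so this share does not settle the build of the counts. Use of strand in counting is not given either, so genes with overlapping or near-identical copies are uncertain. The direction of the authors' fold changes was read from their size-factor counts.

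The tables hold 15929 and 15819 genes. The 15565 in both, whose values did not differ between tables, were used, and the 364 and 254 others held at most 0.00193% of a library. Counts of 12413774 to 15521648 reads a library entered edgeR 4.0.16 (R 4.3.3, TMM, filterByExpr minimum count 10, 12041 genes, group as the only term, 6 residual degrees of freedom, quasi-likelihood test, Benjamini-Hochberg over all tested genes, threshold 0.05). Each standard error is |log2 fold change|/√F, and 95% intervals use the fit's degrees of freedom. Shares were tested by exact permutation. FPKM values were used, without a test, to order genes and to give the carriers' share per length. DESeq2 1.42.0, other scalings, no filter, the 6 compared libraries alone, a replicate block, removal of mitochondrial transcripts, the mitochondrial share as covariate, removal of libraries over 40% mitochondrial, removal of the carriers from the scaling and leaving out each library were alternatives. The edgeR steps were tested on simulated data with a single fixed spread for all genes and no library that stood apart. Those settings differ from these libraries, so that run says nothing of the carriers. Figures used Python 3.11.15, pandas 2.3.3 and matplotlib 3.10.9.

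The carriers, the lists, the markers and the motifs were chosen with earlier results of these data known. All 10 carriers are named. From each list the text names up to 3 genes with an adjusted p under 0.05 or, where there is none, the 2 with the highest mean CPM, and it names the 5 genes closest to the carriers' mean.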

Additional observations from a re-analysis of the deposited data

How the results depend on the processing

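No carrier was called under any alternative in any comparison. Of the 190 alternative fold changes of the carriers in each comparison, 14 in high-fat against normal diet, 13 in SCL-treated against high-fat diet and 21 in SCL-treated against normal diet changed sign, and the others kept direction and stayed uncalled. For calls over all genes, DESeq2 gave 47, 1 and 36 in the 3 comparisons in that order, against 1, 0 and 1 in edgeR. High-fat against normal diet gave 0 with library totals alone, 0 with only the 6 libraries compared, 0 without the libraries over 40% mitochondrial and 2 without the count filter, and SCL-treated against normal diet gave 0 with library totals alone and 0 without the libraries over 40% mitochondrial. Leaving out each library gave 1 to 4 calls in high-fat against normal diet and 0 to 1 in SCL-treated against normal diet. The cause of these differences was not tested.

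With library totals alone the median of all genes was -0.19 in SCL-treated against high-fat diet and -0.21 in SCL-treated against normal diet. In that setting Ambp stood at -0.0575 in high-fat against normal diet, Tf at -0.0565 and Selenop at -0.27 in SCL-treated against high-fat diet, and Rbp4 at -0.0804 and Fetub at -0.16 in SCL-treated against normal diet. Without the count filter Ambp stood at -1e-04 in high-fat against normal diet. With the mitochondrial share as covariate, high-fat against normal diet had Ttr at 0.22, Gc at 0.13, Fetub at -0.0638 and Tf at 0.0096. SCL-treated against normal diet then had Alb at 0.16, Ahsg at 0.28, Fetub at -0.12, Serpina1 at 0.0070, Tf at 0.0837 and Selenop at 0.35. Without the libraries over 40% mitochondrial Ttr stood at 0.12 in high-fat against normal diet, and Alb at 0.18, Ahsg at 0.21 and Serpina1 at 0.12 in SCL-treated against normal diet.

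Leaving out each library in turn gave these ranges where a sign changed. In high-fat against normal diet Ttr ran from -0.65 to 0.12, Rbp4 from -0.54 to 0.078, Ambp from -0.28 to 0.17 and Fetub from -0.26 to 0.44. In SCL-treated against high-fat diet Alb ran from -0.063 to 0.72, Ttr from -0.13 to 0.88, Ahsg from -0.011 to 0.75, Fetub from -0.37 to 0.32, Tf from -0.39 to 0.50 and Selenop from -0.46 to 2.12. In SCL-treated against normal diet Alb ran from -0.60 to 0.18, Ttr from -0.28 to 0.65, Rbp4 from -0.083 to 0.39, Gc from -0.15 to 0.68, Ahsg from -0.37 to 0.22, Fetub from -0.070 to 0.26 and Serpina1 from -0.48 to 0.13.

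Replicate numbers follow the order of the samples within a group, and the numbers in the sample titles differ between groups. Deviations of libraries with the same replicate number correlated between -0.348 and 0.604 over 12041 genes. Of 18 comparisons, 7 put a library closest to its own number. These values and the replicate block describe that order only, and test no pairing given by the labels. With the replicate block 1, 0 and 1 genes and 0 carriers were called, and Selenop stood at -1.68 in high-fat against normal diet (SE 0.87, edgeR adjusted p = 0.840).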
